A study of Homo sapiens with 8 samples.

Results

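The clustered protocadherins are the PCDHA (alpha), PCDHB (beta) and PCDHG (gamma) genes that lie side by side on human chromosome 5. Members were the protein-coding genes on that chromosome whose GENCODE names start with PCDHA, PCDHB or PCDHG, which gave 53 genes (15 alpha, 16 beta and 22 gamma) of 19389 protein-coding genes, all transcribed from the plus strand. The list of poly(A) 3′-sequencing peaks held 153624 peaks, of which 74 overlapped the span of a member or the 600 bp after its 3′ end. A total of 73 were retained after removal of 1 peak with genomic A sequence behind it and no polyadenylation signal hexamer in the 100 bp before its 3′ end. That peak had a hexamer in the 100 bp before its 5′ edge, and with this window all 74 would be retained.

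Each clustered protocadherin is a cell-surface adhesion protein of the cadherin superfamily, and neurons use combinations of them to tell their own branches from those of other cells. An alpha or gamma mRNA joins 1 large variable exon, which encodes the extracellular and transmembrane part and is chosen through its own promoter, to constant exons that all genes of the cluster share and that encode a common cytoplasmic tail. A beta gene consists of a single large exon and has its own 3′ end. Transcripts of an alpha or gamma gene can therefore end at the shared constant region, or earlier if the variable exon is not spliced and the RNA is cleaved in the sequence behind it.

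The libraries came from Kelly cells, a human neuroblastoma line, and from Kelly E9R cells, a derivative selected under an earlier CDK12 inhibitor that carries a mutation at the CDK12 cysteine bound by THZ531, which blocks CDK12 and the related kinase CDK13 by covalent binding. The 4 groups, Kelly_DMSO, Kelly_THZ531_6h, Kelly_E9R_DMSO and Kelly_E9R_THZ531_6h, had 2 libraries each and were treated for 6 h, per the labels with 400 nM THZ531 or with solvent. Reads of all 8 libraries had been merged before peaks were called, so each peak has 1 value for all groups together, no replicate error exists, and neither THZ531 with DMSO nor the 2 lines could be compared at these genes. The cell type label was checked against marker genes: all 12 adrenergic neuroblastoma markers had a retained peak at an annotated transcript end (median of the strongest pileups 53, from 21 at ALK to 121 at PHOX2A), as did 5 of 6 mesenchymal markers (median 16), 1 of 4 epithelial markers (EPCAM, pileup 6) and 0 of 4 haematopoietic markers. A matching share over all genes is not given here. At the gene end alone, 53.4% of the other protein-coding genes had a retained peak.

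The level of a peak is given as its pileup, the number of reads, each extended to 100 bp, that cover the summit. Pileups were recovered as whole numbers from the deposited fold enrichment (the pileup over the local background, each plus 1) and p-value. The highest pileup of the whole list was 200, which is the most that 1 read per position and strand allows at this read length, so a pileup may count distinct read positions and understates strong sites. Exact Poisson 95% intervals cover counting error only. The peaks carry no strand, and 24 of the 73 retained peaks were overlapped by an annotated gene on the opposite strand (13 of 17 beta gene peaks), whose part in the pileups was not tested.

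The sites on which the results turn are shown by the 30 bases of GRCh38 that start at a polyadenylation signal hexamer 10 to 40 bases before the 3′ end of the peak, on the plus strand from 5′ to 3′, with the hexamer in capitals. The peak ends within the window or just after it, on the side where a read begins at the poly(A) tail.
PCDHG shared end, chr5:141512954-141512983: AATAAAacgtttcttctgaaaagctgaacg
PCDHA shared end, chr5:141012323-141012352: AATAAAtgaaaatggtggtatgaaagaaat
PCDHA2 and PCDHA3 extension, proximal peak, chr5:140805349-140805378: AATATAgtttgggtccccacatagtgaaag
PCDHA2 and PCDHA3 extension, distal peak, chr5:140805598-140805627: ATTAAAtttctttatgtaagaaaatgtatt
PCDHA4 extension, chr5:140817567-140817596: ATTAAAtcaataattttaataattccaggc
PCDHA5 extension, chr5:140825830-140825859: AATAAAtataccatgatacaaactcccctc
PCDHGA6 extension, chr5:141379617-141379646: AATAAAatatttctctgatggaaaaactac
PCDHGA7 extension, chr5:141385989-141386018: AATAAAatgtcattttaagtgttgtaattg
PCDHGA1 extension, chr5:141334621-141334650: AATAAAagctgtttcccaattccggtggtt
Intron after PCDHAC1, chr5:140931862-140931891: AATAAAatatttattgctttcattttattt
PCDHB10, chr5:141195620-141195649: AATAAAacattttgaaatgtgtggttgaga
PCDHB2, chr5:141098678-141098707: AATAAActagaacacttaaaggaaaacatt
PCDHB16, distal peak, chr5:141186199-141186228: AATAAAattctatgtgagtcagatttaata
PCDHB14, chr5:141226270-141226299: AATAAAaagcgttgctgaatctgggtcgaa
PCDHB15, chr5:141248157-141248186: AATAAAttaatagtattcattcctgaaggg

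In the windows of the gamma and alpha shared ends, AATAAA started 28 and 26 bases before the 3′ end of the peak. The hexamer was AATAAA or ATTAAA in each of these windows other than that of the proximal PCDHA2 and PCDHA3 peak, which had the variant AATATA. Distances from the hexamer to the end of the peak ran from 12 bases at PCDHGA7 to 32 bases at PCDHA5. The summits of the proximal PCDHA2 and PCDHA3 peak (chr5:140805198) and of the intron peak after PCDHAC1 (chr5:140931687) lay more than 100 bp before the hexamer shown. Reads extended to 100 bp that cover those summits do not reach these hexamers.

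**Figure D1:**
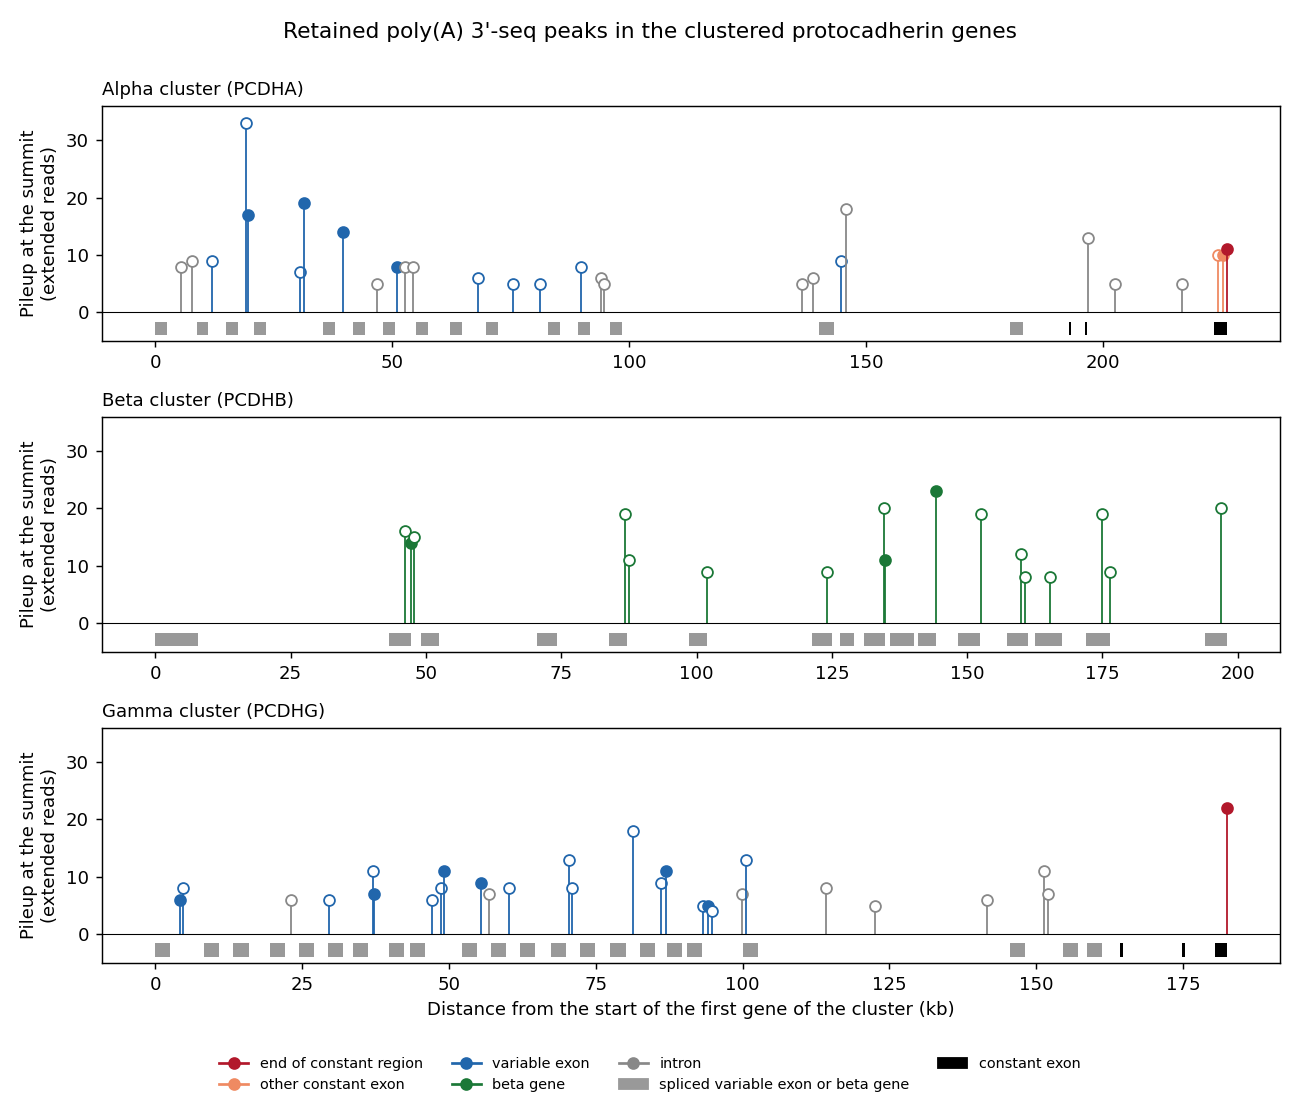
Retained peaks along the alpha, beta and gamma clusters. The x axis gives the distance in kb from the start of the first gene of each cluster and the y axis the pileup at the summit in extended reads; stems are coloured by class, filled points end within 30 bp of an annotated transcript end, grey boxes are spliced variable exons or beta genes, and black boxes are constant exons, drawn at least 0.4 kb wide. The highest stem, with a pileup of 33, stands behind the variable exon of PCDHA3, and the gamma cluster ends in a peak of 22.

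Counted over the whole gene span plus 600 bp, 48 of the 53 members had a retained peak. All 15 alpha and all 22 gamma genes did so, because each spans the shared constant region, and 11 of 16 beta genes did so. Among the other protein-coding genes, 74% had at least 1 retained peak in the same kind of window. The alpha and gamma counts thus carry no information on single genes, and the peaks were assigned once each to the end of a constant region, another constant exon, a variable exon, a beta gene or an intron. This gave 2, 2, 31, 17 and 21 peaks.

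The shared ends were described first because they are common to the genes of a cluster. The alpha constant region consists of 3 exons at chr5:140978949-140979007, chr5:140982475-140982563 and chr5:141009627-141012347, and the gamma constant region of 3 exons at chr5:141494807-141494865, chr5:141505393-141505481 and chr5:141510947-141512975. The gamma end carried a peak at chr5:141512869-141512981 with a pileup of 22 (95% interval 13.8 to 33.3), a fold enrichment of 10 and a −log10 q of 16.9, which ended 4 bp past the nearest annotated transcript end. The alpha end carried a peak at chr5:141012244-141012348 with a pileup of 11 (5.49 to 19.7), a fold enrichment of 7.84 and a −log10 q of 9.32, which ended 1 bp past the nearest annotated end. The pileup was higher at the gamma end, with overlapping counting intervals. A-rich sequence lay behind the alpha end and not behind the gamma end, and the alpha end had no peak left when A-rich peaks were left out.

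Each shared end pools the transcripts of a whole cluster, 15 genes for alpha and 22 for gamma, and the share of a single gene in it cannot be read from a 3′ peak. Of the 10320 other protein-coding genes with a retained peak at the gene end (from 200 bp before to 600 bp after it; 53.4% of those genes), 57.1% had a strongest pileup below 22 and 15.9% one below 11. The median over those genes was 19. The pooled alpha end was therefore below the lower quartile of 13, and the pooled gamma end lay between the median and the upper quartile of 28.

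The long last exon of the alpha constant region held a pair of further peaks upstream of the shared end. The peak at chr5:141011479-141011581, with a pileup of 10 (4.80 to 18.4), ended exactly at the end of an annotated spliced transcript of PCDHA5 and 2 bp after that of one of PCDHA4, with AGTAAA 24 bases before. The peak at chr5:141010325-141010425 also had a pileup of 10, but no signal hexamer before it and A-rich sequence behind it. No retained peak overlapped the first or second constant exon of either cluster, and the last gamma constant exon had no peak other than that at its end.

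Most of the peaks that could be tied to a single alpha or gamma gene lay behind its variable exon and not in it. Of 37 alpha and gamma genes, 21 had a retained peak in their own variable exon sequence or within 600 bp after a transcript that ends there: 9 of 15 alpha genes (PCDHA2, PCDHA3, PCDHA4, PCDHA5, PCDHA7, PCDHA9, PCDHA10, PCDHA12 and PCDHAC1) and 12 of 22 gamma genes (PCDHGA1, PCDHGA5, PCDHGA6, PCDHGA7, PCDHGA8, PCDHGA10, PCDHGA11, PCDHGA12, PCDHGB2, PCDHGB4, PCDHGB5 and PCDHGB6). That is 56.8% of the 37, each of which has an annotated transcript that ends before its second exon. Among the other multi-exon protein-coding genes with such a transcript, 49% (97 of 198) had a retained peak in the first exon, in that transcript or within 600 bp after it; the difference was not tested. Of the C-type genes, which are set apart in sequence and lie last in their clusters, PCDHAC1 had such a peak, and PCDHAC2, PCDHGC3, PCDHGC4 and PCDHGC5 had none. Of the 31 variable exon peaks, 3 lay in sequence assigned to 2 neighbouring genes; without these, 8 alpha and 10 gamma genes had a peak of their own. The alpha genes with none were PCDHA1, PCDHA6, PCDHA8, PCDHA11, PCDHA13 and PCDHAC2, and the gamma genes with none were PCDHGA2, PCDHGA3, PCDHGA4, PCDHGA9, PCDHGB1, PCDHGB3 and PCDHGB7 beside the 3 C-type genes.

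Only 3 of the 31 peaks touched a variable exon as it is spliced in the canonical transcript, at PCDHA12, PCDHGB2 and PCDHGA12, which is 8.11% of 37 exons of 2470 to 3027 bp. The summit of the PCDHGB2 peak lay before the exon. Of the first exons of at least 2000 bp in other multi-exon protein-coding genes, 24.3% (17 of 70) had a retained peak. The other 28 peaks lay past the splice donor of the exon. They fell in the extension covered by annotated unspliced transcripts, or shortly after the end of such a transcript. In 1 case, in the extension of PCDHGB4, the peak also lay in the unspliced PCDHGA8 transcript, before the spliced variable exon of PCDHGA8. The peaks assigned to both PCDHA2 and PCDHA3 lay in the extension of PCDHA3, which PCDHA2 reaches through a spliced 2-exon transcript.

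The extension of PCDHA3, which a spliced 2-exon transcript of PCDHA2 also covers, held the highest pileup of all members. Its proximal peak at chr5:140805104-140805372 had a pileup of 33 (22.7 to 46.3), a fold enrichment of 17 and a −log10 q of 34.6, and ended 249 bp before the annotated end. The distal peak at chr5:140805514-140805621 had a pileup of 17 (9.90 to 27.2), a fold enrichment of 8.82 and a −log10 q of 12.8, and ended exactly at the annotated end of a single-exon transcript of PCDHA3 and of a 2-exon transcript of PCDHA2. The proximal pileup was above that of either shared end in these merged reads, and its counting interval overlapped that of the gamma end but not that of the alpha end. Another peak, at chr5:140797864-140798139 after the shorter single-exon transcript of PCDHA2, had a pileup of 9 and repeat-like sequence that matched 47 other places in the genome.

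PCDHA4 and PCDHA5 came next among the alpha genes. The PCDHA4 peak at chr5:140817411-140817593 had a pileup of 19 (11.4 to 29.7), a fold enrichment of 13.5 and a −log10 q of 21.3, and ended exactly at the end of a single-exon transcript of PCDHA4. The PCDHA5 peak at chr5:140825747-140825861 had a pileup of 14 (7.65 to 23.5), a fold enrichment of 9.87 and a −log10 q of 13.4, and ended 10 bp past the end of a single-exon transcript of PCDHA5. Both pileups were above the 11 at the alpha shared end, with overlapping intervals. An annotated gene on the opposite strand overlaps the peaks from PCDHA2 to PCDHA5. In the mirror window of that strand, the proximal PCDHA2 and PCDHA3 peak and the PCDHA4 peak held no hexamer. The distal PCDHA2 and PCDHA3 peak and the PCDHA5 peak did hold a hexamer there. A second PCDHA4 peak upstream, with a pileup of 7, had no signal hexamer and lay before A-rich sequence.

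The remaining alpha genes with a peak of their own had pileups from 5 to 9. The PCDHA7 peak, at chr5:140837067-140837168 with a pileup of 8 and a fold enrichment of 5.77, ended 1 bp before the end of a single-exon transcript. PCDHAC1 had a peak at chr5:140930656-140930781 with a pileup of 9 and a fold enrichment of 6.37, which ended 336 bp after its unspliced transcript. PCDHA12, with a pileup of 8 and a fold enrichment of 6.82 at chr5:140875912-140876016 inside its spliced exon, and PCDHA9, with a pileup of 6 and a fold enrichment of 5.60 at chr5:140854060-140854160, both lacked a signal hexamer and lay before A-rich sequence. PCDHA10 had 2 peaks, both with a pileup of 5, at chr5:140861490-140861589 (fold enrichment 4.62) and chr5:140867190-140867289 (5.04). The former had no hexamer, lay before A-rich sequence and is overlapped on the same strand by the pseudogene PCDHA14, and the latter had AATAAA 23 bases before its end.

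The 22 gamma genes had 19 variable exon peaks with pileups up to 18 and a median of 8, and the 15 alpha genes had 12 with pileups up to 33 and a median of 8.5. Per 100 kb of variable exon sequence there were 21.7 gamma peaks (13.1 to 33.9) and 15.6 alpha peaks (8.06 to 27.3), with overlapping counting intervals. The strongest gamma peak, at PCDHGB6 (chr5:141411779-141411936), had a pileup of 18 (10.7 to 28.4), a fold enrichment of 10.5 and a −log10 q of 15.8; it lay 685 bp before the end of the annotated extension, with AATAAA 54 bases before its end and A-rich sequence behind it. PCDHGB5 had a peak at chr5:141400790-141400911 with a pileup of 13 (6.92 to 22.2), a fold enrichment of 8.33 and a −log10 q of 10.6, which ended 255 bp after its unspliced transcript. PCDHGA12 had a peak of the same pileup, with a fold enrichment of 8.64 and a −log10 q of 11.1, at chr5:141430998-141431171 inside its spliced variable exon, before A-rich sequence.

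The other gamma peaks of note for their position were lower and ended at annotated single-exon transcripts. The PCDHGA6 peak at chr5:141379538-141379644 had a pileup of 11 (5.49 to 19.7) and a fold enrichment of 7.64 and ended 2 bp after such a transcript. The PCDHGA10 peak at chr5:141417318-141417476 had the same pileup and a fold enrichment of 7.41 and ended 28 bp after one. A-rich sequence lay behind the PCDHGA10 peak. The peak of PCDHGA7 (chr5:141385892-141386000, pileup 9, fold enrichment 7.35) ended exactly at one.

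The same held for lower peaks of the gamma cluster. The PCDHGA1 peak at chr5:141334540-141334639 (pileup 6, fold enrichment 5.11) and the PCDHGA5 peak at chr5:141367684-141367783 (pileup 7, fold enrichment 5) both ended exactly at a single-exon transcript of their gene. The PCDHGA11 peak at chr5:141424437-141424677 (pileup 5, fold enrichment 4.51) ended 2 bp before such a transcript. PCDHGA5 also had a peak of 11 in sequence that matched 17756 other places, so that its reads may come from elsewhere. PCDHGB2 had a peak of 6 (fold enrichment 4.70) across the start of its spliced variable exon. That peak had no hexamer and lay before A-rich sequence, and its summit at chr5:141359807 lay before the gene start at chr5:141359994. With peaks assigned by summit, 11 gamma genes had an own peak. The peak of 8 (fold enrichment 6.82) in sequence of both PCDHGB4 and PCDHGA8 had AATAAA 25 bases before its end.

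By position, 16 of the 31 variable exon peaks lay in an end window (200 bp upstream to 600 bp downstream of the end of any annotated member transcript), and 10 of these 16 (62.5%) ended within 30 bp of an annotated end, 5 of them at exactly 0 bp. Over the end windows of all other protein-coding genes, 63.2% of retained peaks ended within 30 bp of an annotated end. The alignment at the variable exon extensions was thus near that at gene ends in general. The ends were those of PCDHA2 with PCDHA3, PCDHA4, PCDHA5, PCDHA7, PCDHGA1, PCDHGA5, PCDHGA6, PCDHGA7, PCDHGA10 and PCDHGA11, which makes 11 genes. Of the 10 peaks, 9 had AATAAA or ATTAAA in the 100 bp before their 3′ end, and 9 had no A-rich sequence behind them. Of the 18 variable exon peaks without A-rich sequence behind them, 9 ended within 30 bp of an annotated end, and of the 13 with it, 1 did.

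**Figure D2:**
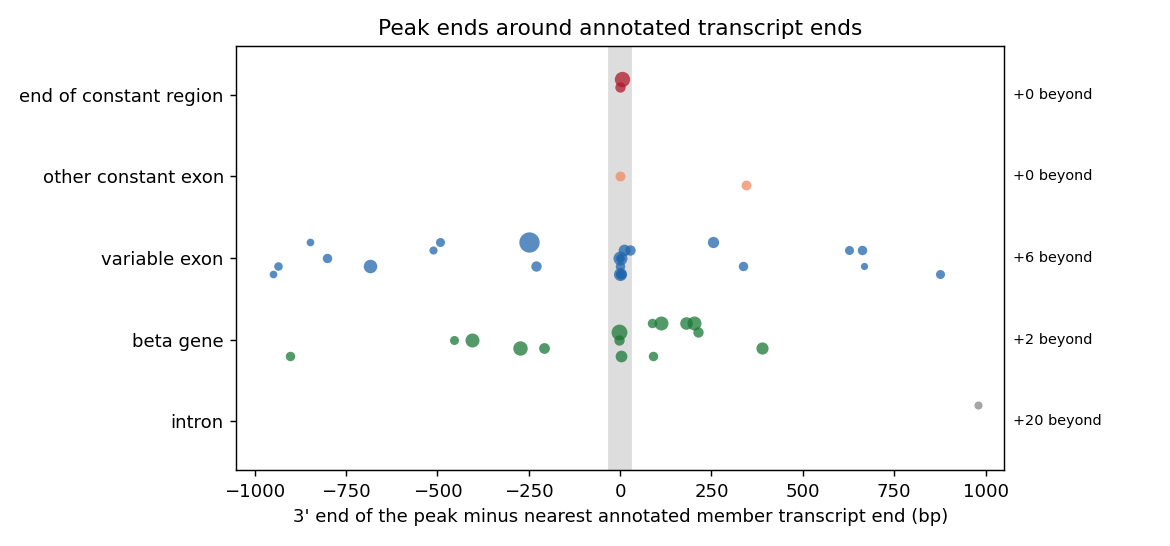
Distance in bp from the nearest annotated member transcript end to the 3′ end of each retained peak (x axis; positive values lie downstream), by class; point area grows with pileup, the grey band marks 30 bp to either side, vertical offsets only separate points, and the numbers at the right count peaks more than 1000 bp away. The peaks at both shared ends and 10 variable exon peaks fall in the band. An intron peak cannot, because exons and the sequence just after transcript ends were not counted as intron.

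The single-exon beta genes have 3′ ends that no other member shares. Of 16 beta genes, 11 (68.8%) had a retained peak, against 31.3% (345 of 1101) of the other single-exon protein-coding genes. PCDHB1, PCDHB3, PCDHB4, PCDHB8 and PCDHB9 had none. Among genes with a peak, the strongest pileup had a median of 19 over the 11 beta genes and of 19 over the 345 other single-exon genes, so the share with a peak was higher for the beta genes and the level of the strongest peak was not; neither was tested. All 17 beta peaks passed a −log10 q of 5 and 12 passed 10, compared with 22 and 7 of the 31 variable exon peaks. The shares of the whole list that pass these thresholds are not given here.

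PCDHB10 had the highest beta pileup and 1 peak only. It lay at chr5:141195514-141195644 in the 3′ UTR with a pileup of 23 (14.6 to 34.5), a fold enrichment of 14.4 and a −log10 q of 24.4, and ended 3 bp before the gene end. PCDHB16 had a peak of 20 (12.2 to 30.9) at chr5:141185713-141185953, with a fold enrichment of 11.7 and a −log10 q of 18.7, which ended 273 bp before the gene end, and one of 11 (5.49 to 19.7) that ended 3 bp before it at chr5:141186122-141186223. The intervals of these 2 peaks overlapped. The former had AATAAA 99 bases before its end and A-rich sequence behind it. The latter had AATAAA 25 bases before its end and no A-rich sequence behind it. An unnamed annotated non-coding gene overlaps both on the same strand, so those reads have 2 possible hosts.

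Other beta genes also had their strongest peak away from the annotated end. PCDHB15 had 1 peak, of 20 (12.2 to 30.9), at chr5:141248048-141248183, with a fold enrichment of 10.8 and a −log10 q of 17.2. That peak ended 1182 bp before the gene end, with AATAAA 27 bases before and A-rich sequence in the 50 bp behind it. The PCDHB14 peak of 19 (11.4 to 29.7) at chr5:141226183-141226296 had a fold enrichment of 11.9 and a −log10 q of 18.5 and ended 203 bp after the shorter annotated transcript. A peak of 9 lay across the gene end, before A-rich sequence. An unnamed protein-coding gene overlaps PCDHB14 on the same strand, so these peaks too have 2 possible hosts. The PCDHB5 peak of 19 (11.4 to 29.7) at chr5:141138020-141138211 had a fold enrichment of 10.1 and a −log10 q of 15.6. It ended 404 bp before the gene end with A-rich sequence behind it, and a peak of 11 lay across that end.

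PCDHB2 was the only beta gene with 3 peaks, and they were of similar height. Their pileups were 16 (9.15 to 26.0) in the 3′ UTR at chr5:141097273-141097444, 14 (7.65 to 23.5) across the gene end at chr5:141098551-141098705 and 15 (8.395 to 24.7) after it at chr5:141098910-141099091, with −log10 q of 10.8 or more. The middle peak ended 2 bp after the annotated end. All intervals overlapped, so no site of PCDHB2 stood above the others.

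PCDHB11 had a retained peak of 19 (11.4 to 29.7) across its end at chr5:141203509-141203891, with a fold enrichment of 11.4 and a −log10 q of 17.6. This peak had no signal hexamer in the 100 bp before its end and lay before A-rich sequence. PCDHB12 had a peak of 12 (6.20 to 21.0) at chr5:141211210-141211330, with a fold enrichment of 9.35 and a −log10 q of 12.2, across the most 3′ of its annotated stop codons, and a lower one of 8 in the 3′ UTR. PCDHB6 and PCDHB7 had pileups of 9, at chr5:141153185-141153375 across the gene end (fold enrichment 8.41, −log10 q 10.9) and at chr5:141175260-141175479 in the 3′ UTR (8.13 and 10.1). PCDHB13 had the lowest, a pileup of 8 with a fold enrichment of 6.34 at chr5:141216612-141216712, 2267 bp before the gene end and without a hexamer. In all, 6 beta genes had 1 peak, 4 had 2 and 1 had 3, and 10 of the 17 peaks lay within the 3′ UTR, 5 across the gene end, 1 after it and 1 across a stop codon.

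The beta peaks were also set against the annotated ends. Of 17, 11 lay in an end window and 3 of these (27.3%) ended within 30 bp of the annotated end, at PCDHB2, PCDHB10 and PCDHB16, where the share over other protein-coding genes was 63.2%.

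**Figure D3:**
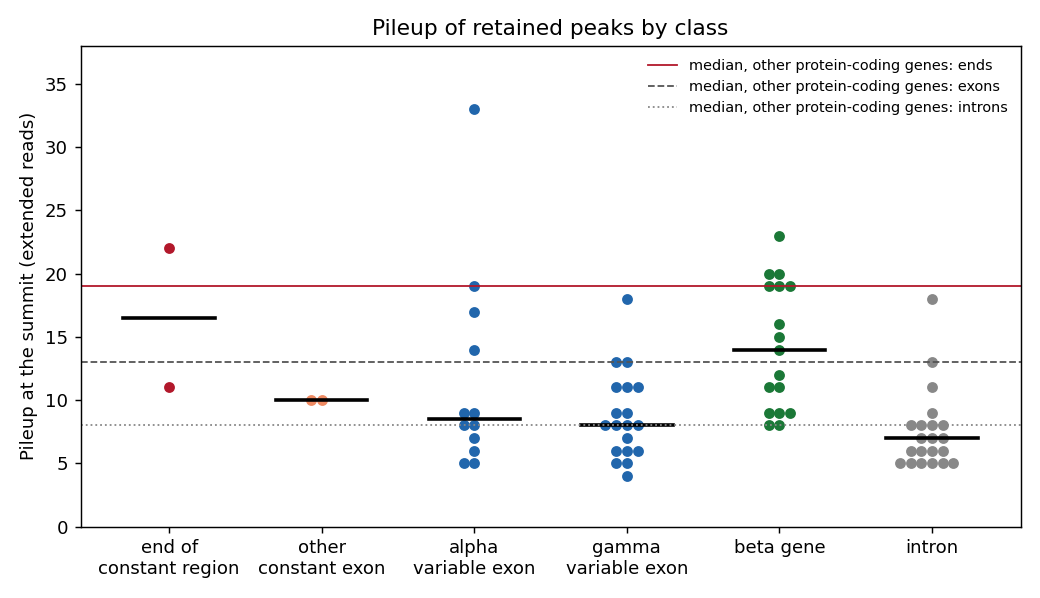
Pileup at the summit (y axis, extended reads) of each of the 73 retained peaks by class, with a black bar at the median of each class; horizontal lines give the median pileup of retained peaks at ends, in other exons and in introns of the other protein-coding genes. Beta gene peaks have a median of 14, variable exon peaks medians of 8.5 (alpha) and 8 (gamma) and intron peaks a median of 7, against 19 at ends, 13 in exons and 8 in introns elsewhere.

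Related to length, the 31 variable exon peaks lay in 164 kb of sequence (18.9 per 100 kb, 95% interval 12.8 to 26.8), the 17 beta peaks in 75.01 kb (22.7 per 100 kb, 13.2 to 36.3) and the 21 intron peaks in 239 kb (8.78 per 100 kb, 5.43 to 13.4). The constant ends had 2 peaks in 1.60 kb. The values over other protein-coding genes were 72.5 per 100 kb in end windows, 28.9 in other exons and 7.14 in introns. The member introns thus held peaks at a density whose counting interval includes that of introns in general. The density of the variable exon sequence, with spliced exons and extensions counted together, was above the upper bound for member introns. The counting intervals of these classes overlapped.

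The intron peaks were mostly weak, with pileups from 5 to 18 and a median of 7, but 2 of them passed a −log10 q of 10. The stronger lay 1437 bp after the unspliced PCDHAC1 transcript at chr5:140931620-140931882, with a pileup of 18 (10.7 to 28.4), a fold enrichment of 12.2 and a −log10 q of 18.6. It had AATAAA 21 bases before its end and no A-rich sequence behind it. Its summit, at chr5:140931687, lay more than 100 bp before that hexamer. The other followed the second alpha constant exon at chr5:140982874-140982992, with a pileup of 13 (6.92 to 22.2), a fold enrichment of 10.6 and a −log10 q of 14.7; its only hexamer, AAGAAA 17 bases before the end, stands in purine-rich sequence. Of the 21 intron peaks, 18 lay before the first constant exon of their cluster and 3 behind its start, all 3 in the alpha cluster.

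Signal hexamers and A-rich sequence were compared between the sense strand and the mirror window on the opposite strand of the same peaks. The hexamers searched in the 100 bp before the end of a peak were AAGAAA or AATAAA or AATACA or AATAGA or AATATA or AATGAA or ACTAAA or AGTAAA or ATTAAA or CATAAA or GATAAA or TATAAA, and a window could hold several. Sequence was called A-rich where the 50 bp after the peak held 6 A in a row or 7 A in 10 bases. Of 31 variable exon peaks, 25 had a hexamer on the sense strand and 10 on the opposite strand; of 17 beta peaks, 15 and 12; and of 21 intron peaks, 18 and 11. The shares with a sense hexamer were 80.6%, 88.2% and 85.7%, where other protein-coding genes had 85.6% at ends, 67.5% in other exons and 54.1% in introns.

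A-rich sequence behind the peak was found at unlike shares in the 3 classes. It followed 15 of 21 intron peaks on the sense strand and 3 on the opposite strand, 13 and 10 of 31 variable exon peaks, and 5 and 11 of 17 beta peaks. In introns of other protein-coding genes the shares were 75.4% on the sense strand and 21.0% on the opposite strand, and at gene ends 19.2% and 25.4%. A hexamer without A-rich sequence behind it was found at 37 of the 73 retained peaks (50.7%, Wilson 95% interval 39.5 to 61.8): at 58.1% of variable exon peaks, 64.7% of beta peaks and 28.6% of intron peaks, where the shares elsewhere were 71.2% at ends, 35.7% in other exons and 17.0% in introns. Oligo(dT) can prime on such genomic A sequence within an RNA, and its part in these peaks was not tested.

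The sequence behind A-rich peaks is shown for 3 sites as the 30 bases that follow the end of the peak, with runs of 4 or more A in capitals. The peaks at PCDHA9 and PCDHA4 were retained, since the removal rule asks for 25 A with at most 3 mismatches, and the peak after PCDHB11 met it.
PCDHA9 extension, chr5:140854161-140854190: AAAAAAAAAAAAAAAAgagtagtttaacta
PCDHA4 extension, proximal peak, chr5:140816612-140816641: AAAAAAAcAAAAAAcaacaacacaccagct
After PCDHB11, removed peak, chr5:141204218-141204247: AAAAAAAAAAAAAAAAAAAAAgaaagaaag

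**Figure D4:**
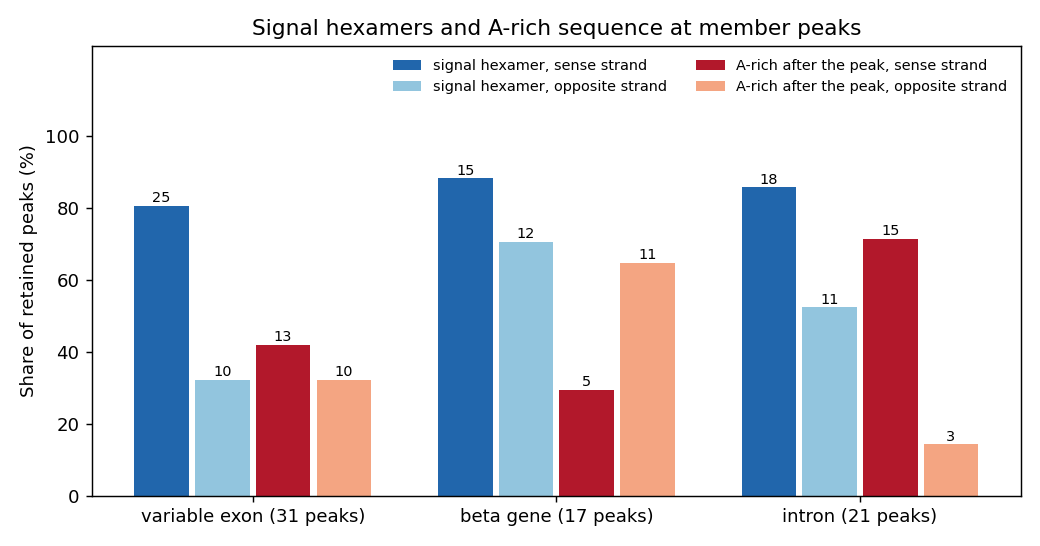
Share of retained peaks (y axis, percent) with a polyadenylation signal hexamer in the 100 bp before the 3′ end and with A-rich sequence in the 50 bp after it, on the sense strand and in the mirror window on the opposite strand, for variable exon, beta gene and intron peaks; numbers above the bars are peak counts. Intron peaks have A-rich sequence 15 times on the sense and 3 times on the opposite strand.

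Because the members arose by duplication, each peak was compared with the genome. Of the 74 peaks, 67 matched no other place at 90% identity over at least 75 bp, and the 7 that did held repeat-like sequence. The peaks at both shared ends and every beta peak that was retained were among the 67. Reads of these sites could thus be told apart from those of other members at that identity, although reads that map to several places had been kept by the authors.

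The genes around and beside the clusters gave a scale for these levels. Of the neighbouring genes, 7 of 8 had a retained peak at an annotated end, with strongest pileups from 20 to 55 (ZMAT2, a splicing factor gene next to the alpha cluster); SLC25A2, a single-exon gene between the beta and gamma clusters, had none. Of 12 non-clustered protocadherins, which have genes of their own elsewhere, 8 had an end peak, with a median strongest pileup of 13, from 5 at PCDH15 to 33 at PCDH18, and PCDH8 and PCDH20 had no retained peak. Of the genes that control promoter choice in the clusters, CTCF, which binds their promoters and enhancers, had a strongest end pileup of 31 and RAD21, a cohesin subunit, one of 23, and 7 of 8 insulator and cohesin genes had an end peak (median 23). All 6 silencing genes had one (median 49), with SMCHD1, a chromatin protein known to keep clustered protocadherins repressed, at 21 and DNMT3B, the DNA methyltransferase known to methylate their promoters, at 13. All 9 processing and signalling partners had one (median 26), with ADAM10, the protease that sheds the protocadherin ectodomain, at 21. For scale, 53.4% of the other protein-coding genes had a retained peak in the window at the gene end alone. The counts of this paragraph use any annotated transcript end, for which the share over all genes is not given here.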

How the data were processed

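Poly(A) 3′-seq libraries (QuantSeq REV) were made from 8 samples in 4 groups. The authors trimmed reads with BBDuk, mapped them with STAR (2.5.1b) to GRCh38 plus spike-in sequences, merged all libraries and called peaks with MACS2 (2.1.1); tool versions are from the submitters' processing notes. The deposited list gives per peak a fold enrichment ratio over the local background and −log10 p and −log10 q values. It has 0 columns of values per sample, 0 peaks with a strand and 0 peaks past a chromosome end; depth per library is unknown and handling of duplicates is not given in the sources used here. Coverage tracks were not used here. The labels give 400 nM THZ531 for these lines, whereas the study's methods give a lower concentration.

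Pileup and background were solved from the fold enrichment and −log10 p, and all peaks of the list gave a whole pileup (100% within a tolerance of 0.001 in −log10 p); the step was tested on simulated data. Peaks with 25 A (at most 3 mismatches) in the 50 bp after them and no hexamer in the 100 bp before their 3′ end were removed; the criteria follow the study, which however describes a hexamer window upstream of the peak. Genes and transcripts were GENCODE release 44 (basic set, readthrough transcripts left out). Constant exons were exonic bases shared by at least 50% of the genes of a cluster; a peak was assigned by at least 1 bp of overlap. Other genomic places were searched with BLAST+ (2.17.0). Counts, medians and intervals used Python (3.11.15), numpy (2.4.6), pandas (2.3.3), pysam (0.24.0) and scipy (1.17.1). Named with values were the peaks at the shared ends, the strongest peak of each beta gene, each alpha or gamma gene with an own peak, and each member peak with a −log10 q of at least 10; related genes and markers came from fixed lists. Members and lists were chosen with earlier results of these data known. No test was run, since 1 pooled list holds no replicate.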

Additional observations from a re-analysis of the deposited data

How the results depend on the processing

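The 6 kinds of result were recomputed with peaks of a −log10 q of at least 5 or 10, without the removal of A-stretch peaks, by summit, with 0 or 4000 bp after the 3′ end, with all GENCODE transcripts, and with peaks restricted by hexamer and A-rich sequence. Of 150 alternative values, 139 stayed within 1.5 times the count or within the counting interval, and 11 did not. At a −log10 q of at least 10, alpha genes with an own peak fell to 4 and gamma genes to 3, constant exons outside the end to 0 peaks per kb, variable exons to 0.0426 and introns to 0.00836 per kb, and the share with a hexamer and no A-rich sequence rose to 68.2%. Introns had 0.0418 per kb at a −log10 q of at least 5. With hexamer peaks clear of A-rich sequence, variable exons had 0.110 and introns 0.0251 per kb. The constant ends had 4.98 per kb with 0 bp after the end, by the shorter window. The share was 27.4% with hexamers sought before the 5′ edge of the peak. The alpha constant end had no peak left at a −log10 q of at least 10 or when A-rich peaks were left out, nor did the other constant exons at a −log10 q of at least 10. With 4000 bp after the end, PCDHA1, PCDHA6, PCDHB9, PCDHGA4, PCDHGB1, PCDHGB7 and PCDHGC3 gained a peak, and the gamma end value became the 26 of the neighbouring DIAPH1.

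No paired analysis was possible because the list holds no value per library, and for the same reason none of the replicates was left out. Pileups of 5 to 10 have wide counting intervals, so the order of the weak sites is not resolved, and the absence of a peak at a member says only that none was called at this depth.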
